A study of Mus musculus with 4 samples.

Results

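Tfh-like (Tox2) and Th0 (Tox2) are the 2 libraries, of 4 in all, in which naive CD4+ T cells carried a Tox2 retrovirus and were cultured with and without IL-6. Both were chosen by their labels. They answer which transcripts differed between the cultures while Tox2, an HMG-box DNA-binding protein, was forced on both sides. The naive cells came from spleen and lymph nodes of wild-type C57BL/6 mice aged 7 to 8 weeks. They were activated and infected in neutral conditions, sorted for the GFP that the virus also encodes, and then cultured. The Tfh-like medium held blocking antibodies to IFN-gamma, IL-4 and IL-2 together with IL-6. The Th0 medium held the same 3 antibodies without IL-6. The other 2 libraries, Tfh-like (GFP) and Th0 (GFP), had the same media and a virus with GFP only. They serve here to show where the culture difference was not the same without forced Tox2. There was 1 library in each group, so the values carry no replicate error and p-values are left out. Whether a library pooled several animals, and whether both cultures came from 1 transduction, is not stated in the labels.

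IL-6 binds its receptor with the shared chain gp130, encoded by Il6st, and activates JAK kinases and the transcription factor STAT3. STAT3 switches on feedback genes such as Socs3, and in CD4+ T cells it favours both the T follicular helper (Tfh) program, which helps B cells in germinal centres, and the Th17 program, which makes IL-17. TGF-beta, which is usually added to drive Th17 cells, is not named as an added factor in either medium.

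Total counts were 13562334 in Tfh-like (Tox2) and 13673774 in Th0 (Tox2). Values are counts scaled by library size with TMM factors (CPM). For a gene with 0 counts a floor of 3 counts was set, which is 0.224 CPM in Tfh-like (Tox2) and 0.216 CPM in Th0 (Tox2). No gene compared was at 0 in Tfh-like (Tox2), and 6 were at 0 in Th0 (Tox2). Mitochondrially encoded genes took 2.16% and 2.45% of the counts. Of 16 CD4+ T-cell markers 13 were measured, at a summed 7591 CPM in Tfh-like (Tox2) and 7350 CPM in Th0 (Tox2), and none was at 0. Among the markers of NK cells and neutrophils none was measured, and 1 of 10 B-cell markers, Cd79a, stood at 0.971 and 1.73 CPM. Of 10 macrophage markers 3 were measured, at a summed 14.4 and 12.5 CPM. The Tox2 transcript (GRCm38 chromosome 2, plus strand, 163203125 to 163324170) had 32246 counts in Tfh-like (Tox2) and 35297 in Th0 (Tox2), against 851 in Tfh-like (GFP) and 144 in Th0 (GFP). Forced Tox2 was thus 1.05-fold lower in the Tfh-like library (log2 fold -0.08, counting interval -0.10 to -0.05). Viral and endogenous Tox2 reads cannot be told apart.

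Of 10960 genes compared, 719 were called higher in Tfh-like (Tox2), 6.56% of all, and 314 were called lower, 2.86% of all. Together these 1033 genes are 9.43% of those compared. Counts of calls in the gene lists below are to be read beside these shares. A call needed a log2 fold of 1 or more in either direction and an exact 95% counting interval that left out 0. These intervals hold counting error alone, because each group has 1 library. Reads were not collapsed to molecules, so the intervals may be too narrow even for counting error. Their reach to either side had a median of 0.17 on the log2 scale, and the median log2 fold of all genes was 0.00. The higher genes reached further from 0 than the lower ones, with 231 higher and 78 lower genes at a log2 fold of at least 2 in size, and 89 and 23 at 3. The genes called higher held 4.73% of all counts in Tfh-like (Tox2) and 1.61% in Th0 (Tox2). Those called lower held 0.744% and 2.09%.

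**Figure D1:**
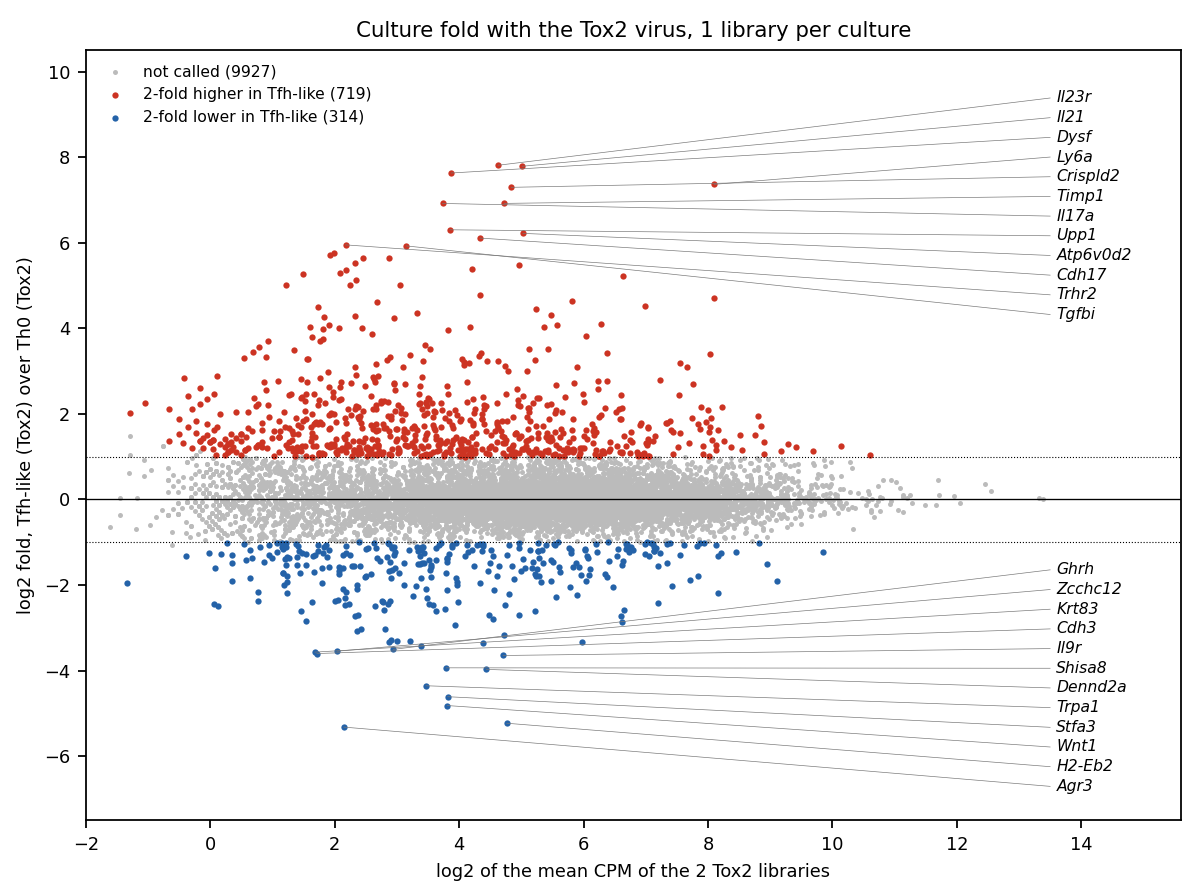
Each point is 1 of 10960 genes, with the log2 of its mean CPM in the Tox2 libraries on the x axis and the log2 fold of Tfh-like (Tox2) over Th0 (Tox2) on the y axis. The 719 genes called higher are red, the 314 called lower are blue, and names mark the 12 highest and 12 lowest genes at a CPM of at least 5 in the higher library.

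Among genes at a CPM of at least 5 in the higher library, those with the largest folds were nearly silent in Th0 (Tox2). Il23r (chromosome 6, minus strand, 67422932 to 67491855), which encodes a chain of the IL-23 receptor, had 661 counts in Tfh-like (Tox2) and 1 in Th0 (Tox2). That ratio is 686, with a counting interval of 123 to 27140. Ratios here leave out the prior count of 2 that the log2 folds carry, so the measures differ at few counts. The log2 fold of Il23r was 7.81. The gene of the membrane repair protein dysferlin, Dysf (chromosome 6, 84008590 to 84211060, plus strand), had 392 counts in Tfh-like (Tox2) and 0 in Th0 (Tox2). It was at least 136-fold higher against a floor of 3 counts in the Th0 library. Ly6a, encoding the surface protein Sca-1, had 7310 counts in Tfh-like (Tox2) and 44 in Th0 (Tox2), a ratio of 172 (128 to 237.5). Crispld2, whose product is a secreted protein, had 764 and 3 counts, a ratio of 264 (90.1 to 1285). Timp1, an inhibitor of metalloproteinases, had 705 and 4 counts, and Atp6v0d2, a subunit of the proton pump V-ATPase, had 863 and 10. The uridine phosphorylase gene Upp1 had 383 and 3 counts, a ratio of 132.5 (45.0 to 645). Cdh17, a cadherin gene, had 534 and 6 counts. Trhr2, a receptor gene for thyrotropin-releasing hormone, had 121 and 0 counts and was at least 41.9-fold higher. Tgfbi, an extracellular matrix gene named for its induction by TGF-beta, had 236 and 2 counts, a ratio of 122.5 (33.5 to 1017). In this group of 12 genes, which Il21 and Il17a complete, the Th0 library held at most 44 counts of any gene.

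At the other end, the Th0 library held transcripts that were scarce with IL-6. Agr3, a member of the protein disulfide isomerase family (chromosome 12, 35925620 to 35949736, plus strand), had 1 count in Tfh-like (Tox2) and 122 in Th0 (Tox2), a ratio of 0.00851 (0.000214 to 0.0483). H2-Eb2, a gene of the MHC class II beta family (chromosome 17, 34325665 to 34341412, plus strand), had 17 and 738 counts, a log2 fold of -5.23 (-6.17 to -4.70). The Wnt ligand gene Wnt1 had 11 and 378 counts, a log2 fold of -4.82 (-6.06 to -4.19). Trpa1, a cation channel, had 12 and 295 counts and Dennd2a, of a family that activates Rab GTPases, 33 and 568. The IL-9 receptor gene Il9r had 50 and 674 counts, a log2 fold of -3.65 (-4.14 to -3.28). The cadherin Cdh3, the hair keratin Krt83 and Ghrh, the gene of growth hormone-releasing hormone, had 5 and 86, 5 and 84, and 15 and 198 counts. Shisa8, Zcchc12 and Stfa3 complete the 12 lowest genes under the same CPM limit, with log2 folds of -3.94, -3.55 and -4.61. Stfa3, H2-Eb2, Ly6a and other members of the Ly6, H2, Gbp and Klrc families have related genes of similar sequence, so their counts are uncertain. How alike these sequences are was not examined.

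Genes of the Th17 program stood higher in Tfh-like (Tox2) as a group. Of 19 measured members 15 were called higher and none lower, and the median log2 fold was 2.06. The effector cytokine gene Il17a (chromosome 1, plus strand, 20730905 to 20734496) had 355 counts in Tfh-like (Tox2) and 1 in Th0 (Tox2), a ratio of 368.5 (65.7 to 14590). Its neighbour in function Il17f had 2593 and 70 counts, a log2 fold of 5.22 (4.92 to 5.63). The IL-1 receptor gene Il1r1 had 487 and 10 counts, a log2 fold of 5.39 (4.77 to 6.73). Hif1a, an oxygen-sensing factor, had a log2 fold of 1.72 and the aryl hydrocarbon receptor Ahr 1.47, while the nuclear receptor Rora had 1.26. The 4 members not called were Nr1d1 (0.76), Irf4 (0.02), the chemokine receptor Ccr6 (-0.69) and the cytokine Csf2 (-0.87). Ccr6, which guides Th17 cells into tissues, was at 1456 counts in Tfh-like (Tox2) and 2446 in Th0 (Tox2). The chemokine gene Ccl20, whose product is the ligand of Ccr6, had only 21 and 7 counts, and its call was lost with a prior count of 10. Within the list, 6 genes had 10 counts or fewer in Th0 (Tox2).

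**Figure D2:**
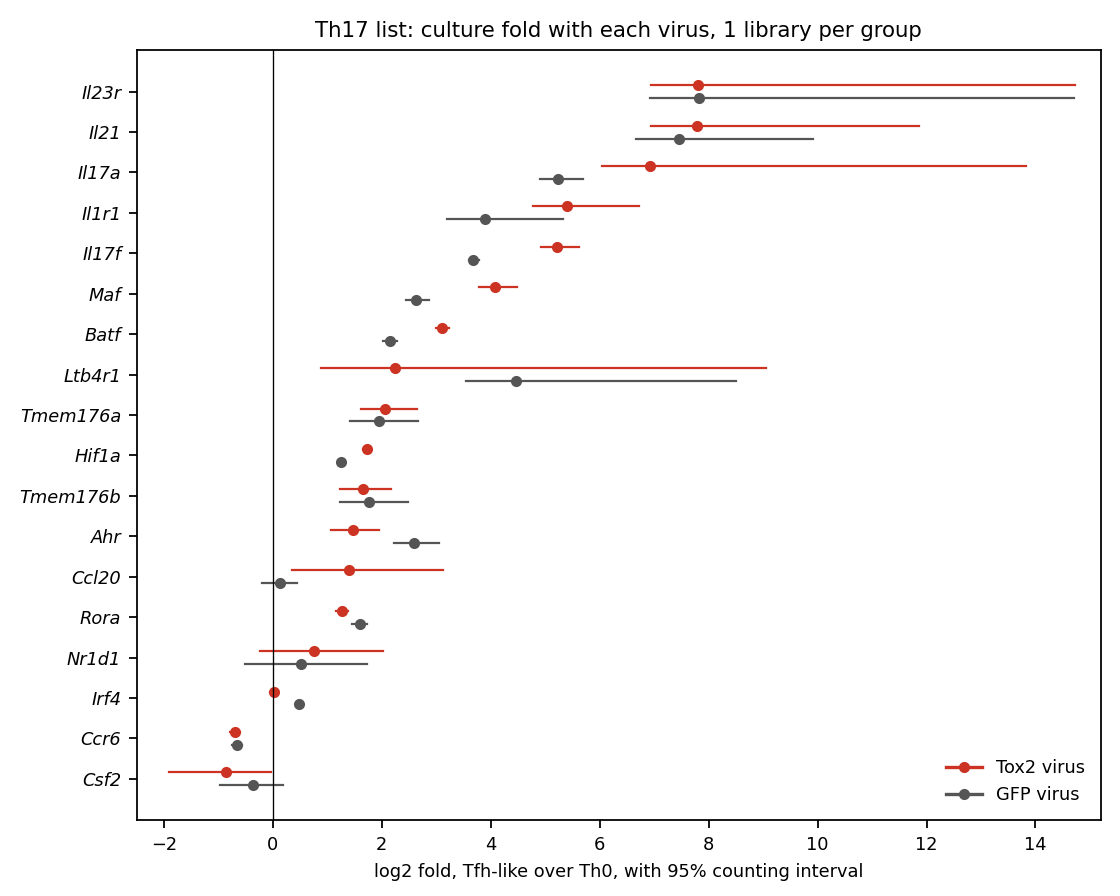
Points are the log2 fold of Tfh-like over Th0 for 18 of the measured Th17 genes, red with the Tox2 virus and grey with the GFP virus, and lines are 95% counting intervals (those of Il23r and Il17a reach far right because Th0 held 1 count). Il17f stands at 5.22 with Tox2 and 3.68 with GFP.

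A few feedback genes of JAK-STAT signalling were called higher. Socs3, the inhibitor that binds gp130 and JAKs (chromosome 11, 117966079 to 117970047, minus strand), had 7021 counts in Tfh-like (Tox2) and 277 in Th0 (Tox2), a ratio of 26.3 (23.3 to 29.8). Socs1 had 1980 and 499 counts, a log2 fold of 2.04 (1.90 to 2.19), and Cish, a feedback gene downstream of STAT5, had 1960 and 955, a log2 fold of 1.09. These 3 were the called members among 15 measured SOCS and other JAK-STAT feedback genes, whose median was -0.09. Socs2 (-0.75) and the phosphatase gene Ptpn11 (-0.89) lay at the low end of that list.

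Of 27 measured genes in the IL-6 and STAT3 list, 13 were called higher and none lower, with a median of 0.88. The lists overlap, so their counts are not separate evidence. This list shares Socs3 and Socs1 with the feedback genes, Il21, Maf and Batf with the Tfh list, and Il21 with the Th17 list. Tnfrsf8, encoding CD30, had 818 counts in Tfh-like (Tox2) and 17 in Th0 (Tox2), a log2 fold of 5.48 (4.95 to 6.43). The IkB family gene Bcl3 had 5025 and 803 counts (2.70), and Lif, a cytokine of the IL-6 family, had 1439 and 269 (2.46). Pim1, a kinase gene, had a log2 fold of 1.18 and Jak2 1.07. The receptor and the STATs themselves differed less. Il6st stood at -0.75, Il6ra, the IL-6-binding chain, stood at 0.59, and Stat3 had 17498 and 9846 counts, a log2 fold of 0.88. None of the 7 STAT genes was called in either direction, and their median was 0.43. Stat4 was the only one below 0, at -0.09, under all scalings tried.

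Short stretches from promoter windows of named genes called higher, from any list or rule, are shown because they carry letters that STAT and AP-1 proteins are known to bind. AP-1 is the family of Jun, Fos and BATF proteins, of which Batf appears below. The promoter windows run from 250 bases before to 50 after each RefSeq start of a gene (GRCm38.p6), of which some genes have several, and were matched by symbol for 8829 of the 10960 genes. Both strands were searched. The STAT pattern TTCNNNGAA was found in at least 1 window for 7.78% of matched genes called higher, 5.39% of those called lower and 8.11% of all matched genes. The AP-1 pattern TGANTCA was found in 10.8%, 7.88% and 5.89%. The ROR letters AGGTCA were in 19.5%, 18.7% and 14.8%, the T-box letters AGGTGNGA in 7.05%, 7.05% and 5.96%, and the E-box CANNTG in 73.2%, 70.1% and 67.1%. Overlaps between patterns were not removed, and a match is not a bound site. The 3 genes with the highest folds among named genes with a match in the part of the window before the RefSeq start are given for each pattern, 5′ to 3′ on the gene's strand, with the match in capitals. The STAT matches begin 154 bases before the RefSeq start in Socs3, 123 in Il12rb2 and 111 in Il1r2. In Socs3 and Il1r2 that start lies inside the GENCODE gene, which has other starts further out, so these stretches fall within the gene's span. The AP-1 matches begin 244 bases before the RefSeq start in Il17a, 45 in Upp1 and 132 in Tnfrsf8.
Socs3 (chr11:117969486-117969546, minus strand): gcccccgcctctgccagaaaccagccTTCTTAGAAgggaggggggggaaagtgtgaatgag
Il12rb2 (chr6:67376277-67376337, minus strand): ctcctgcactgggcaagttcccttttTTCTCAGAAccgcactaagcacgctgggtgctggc
Il1r2 (chr1:40085956-40086016, plus strand): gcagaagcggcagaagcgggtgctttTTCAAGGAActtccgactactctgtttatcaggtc
Il17a (chr1:20730655-20730693, plus strand): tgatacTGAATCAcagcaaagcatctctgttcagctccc
Upp1 (chr11:9117937-9117995, plus strand): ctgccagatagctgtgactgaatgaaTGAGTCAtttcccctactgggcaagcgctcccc
Tnfrsf8 (chr4:145315264-145315322, minus strand): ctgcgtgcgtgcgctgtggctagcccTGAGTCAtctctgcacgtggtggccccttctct

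The Tfh program split into a few genes that stood far higher and many that did not. Of 27 measured members 5 were called higher and 1 lower, with a median of 0.05. Il21, the Tfh and Th17 cytokine, had 863 counts in Tfh-like (Tox2) and 2 in Th0 (Tox2), a ratio of 448 (124 to 3704). Maf, a transcription factor that activates Il21, had 1208 and 72 counts, a log2 fold of 4.08 (3.78 to 4.49). Batf, an AP-1 factor needed by both Tfh and Th17 cells, had 4882 and 587 counts, a log2 fold of 3.11 (2.99 to 3.24). The bHLH factor gene Ascl2 had 142 and 42 counts (1.76), and S1pr2, which holds cells in the germinal centre, 847 and 298 (1.55).

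Most of the surface and nuclear markers by which Tfh cells are usually recognised fell short of the 2-fold call between the Tox2 libraries. Bcl6, the defining factor, had 2632 counts in Tfh-like (Tox2) and 1734 in Th0 (Tox2), a log2 fold of 0.66 (0.57 to 0.74), short of the 2-fold call. Cxcr5, the follicle-homing receptor, had 514 and 488 counts (0.13, -0.05 to 0.31). Tcf7 had 14556 and 14605 counts and Lef1 3454 and 3454, which puts both of these TCF-1 family genes at 0.05. The costimulator Icos stood at 0.45, and Pdcd1, encoding PD-1, had 7037 and 9798 counts (-0.42, -0.47 to -0.38). Tox, the paralogue of Tox2, had 949 and 1508 counts (-0.61). Btla, an inhibitory receptor, was the 1 member called lower, at 1139 and 2707 counts (-1.19). Its list of 16 inhibitory receptors and ligands had 1 call higher, Cd200r1 (1.91), and 2 lower, Btla and Ceacam1 (-1.87), with a median of -0.31. Over all genes compared, 6.56% were called higher and 2.86% lower. In the GFP pair the log2 folds were 0.77 for Bcl6, 0.53 for Cxcr5, 0.69 for Icos, 0.01 for Tcf7 and -1.03 for Pdcd1. Bcl6, Cxcr5, Tcf7, Lef1 and Pdcd1 each had a higher CPM in both Tox2 libraries than in either GFP library. Icos, Tox and Btla did not. For Bcl6 these levels were 197 and 125 CPM with Tox2 and 74.8 and 44.0 CPM with GFP.

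Genes known to oppose the Tfh fate were called in both directions, 5 higher and 2 lower of 15. Tbx21, encoding the Th1 factor T-bet, had 256 counts in Tfh-like (Tox2) and 11 in Th0 (Tox2), a log2 fold of 4.36 (3.73 to 5.61). The E-protein inhibitor gene Id2 had 3526 and 523 counts, a log2 fold of 2.80 (2.67 to 2.94). Prdm1, encoding the Bcl6 antagonist Blimp-1, was scarce at 29 and 9 counts, and its log2 fold of 1.54 has an interval of 0.62 to 3.01. Ccr7, the receptor that guides naive cells into lymph nodes, was called lower, at 7408 and 17885 counts (-1.22). In the overlapping list of 18 naive and memory genes, 6 were called higher, among them the IGF-binding protein gene Igfbp4 (3.19) and the chemokine receptor Cxcr4 (1.79). Ccr7 and Dapl1 (-3.36) were among the 3 called lower.

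Th1 and cytotoxic genes were called in both directions. Of 19 measured members 10 were called higher and 6 lower, with a median of 1.002. On the higher side, beside Tbx21, stood the IL-12 receptor chain Il12rb2, with 359 counts in Tfh-like (Tox2) and 22 in Th0 (Tox2), a log2 fold of 3.96 (3.46 to 4.77). The pore-forming protein gene Prf1 had 406 and 46 counts (3.14), and the receptor Cxcr3 had 812 and 104 (2.99). On the lower side stood the T-box factor gene Eomes, with 48 and 284 counts, a log2 fold of -2.46 (-2.98 to -2.07), and the granzyme B gene Gzmb, with 16 and 47 counts (-1.39). Fasl (-1.52) and the chemokines Ccl3 (-1.50), Ccl4 (-1.59) and Ccl5 (-1.30) were the other members called lower. The 2 T-box genes Tbx21 and Eomes thus had calls of opposite sign. Cd8b1, a CD8 T-cell marker, stood at 15.4 CPM in Tfh-like (Tox2) and 9.14 CPM in Th0 (Tox2), and no NK-cell marker of the list was measured. What part cells of another type had in these values was not tested. In bulk libraries, fewer cells of a type and less RNA per cell cannot be told apart.

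More chemokine receptors were called higher than lower, as was so over all genes compared, where 69.6% of calls were higher. More chemokine ligands were called lower than higher. Among 11 receptors 6 were called higher and 3 lower, with a median of 1.37, or 0.75 among those at a CPM of at least 5. Cxcr4, the receptor of Cxcl12, had 2523 counts in Tfh-like (Tox2) and 757 in Th0 (Tox2), a log2 fold of 1.79 (1.67 to 1.91). Cxcr6 had 320 and 59 counts, a log2 fold of 2.45, and the skin-homing receptor Ccr4 had 2683 and 1073 (1.37). The receptor Ccr8 had 412 and 1204 counts, a log2 fold of -1.49, and Ccrl2, an atypical receptor, was the third called lower, at -1.06. Of 8 ligands 4 were called lower, with a median of -0.63, or -1.30 among those at a CPM of at least 5. The membrane-bound chemokine Cx3cl1 had 19 and 176 counts (-3.03), and Ccl20 was the 1 ligand called higher.

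Among 20 cytokine genes 7 were called higher and 3 lower. After Il21, Il17a and Il17f came the TGF-beta isoform gene Tgfb3, with 408 counts in Tfh-like (Tox2) and 61 in Th0 (Tox2), a log2 fold of 2.75 (2.40 to 3.21). Spp1, encoding osteopontin, had 325 and 52 counts (2.65). Ebi3, a subunit of IL-27 and IL-35, was lower at 51 and 222 counts (-2.03), as were Il13, at 19 and 61 (-1.53), and Il2, at 47 and 130 (-1.38). Of 30 cytokine receptor chains 8 were called higher and 1, Il9r, lower. Il1r2, the decoy receptor for IL-1, had 601 and 64 counts, a log2 fold of 3.24 (2.91 to 3.68), so that the signalling receptor Il1r1 and its decoy were both higher. Il17re (2.84), Il18r1 (1.63), Il4ra (1.22) and Il18rap (1.07) complete the chains called higher. The IL-2 receptor alpha chain Il2ra had 2906 and 5591 counts, a log2 fold of -0.89 (-0.96 to -0.83), and so missed the call. Of 8 Th2 genes 2 were called in each direction, and of 15 regulatory T-cell genes 2 were higher and 3 lower. The latent TGF-beta receptor Lrrc32 was higher at 1.41, while Ikzf2, encoding Helios, was lower at 490 and 1795 counts (-1.82), and Nrp1, a surface marker of thymic regulatory cells, lower at -1.32.

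Genes switched on by T-cell receptor signals were called in 1 direction. Of 28 measured members 7 were called lower and none higher, with a median of -0.17. Dusp5, a phosphatase that switches off ERK, had 341 counts in Tfh-like (Tox2) and 2338 in Th0 (Tox2), a log2 fold of -2.72 (-2.89 to -2.56). The orphan nuclear receptor genes Nr4a3, with 616 and 3427 counts, and Nr4a1, with 3453 and 10200, had log2 folds of -2.42 and -1.51. The third of that family, Nr4a2, had 2435 and 2415 counts (0.07). Rel, an NF-kB subunit, was lower at -1.30, and Dusp4 and Egr3 were lower at -1.23 and -1.12. Other members stood above 0 without a call, such as Ctla4 (0.90), Nfatc2 (0.89) and Egr2 (0.72).

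Transcription factor families were split as well. Of 17 AP-1 and BATF genes 6 were called higher: Maf, Batf, Batf3 (2.76), Jun (1.56), Fosl2 (1.28) and Maff (1.15). Only Atf3 was called lower, at 8 and 23 counts (-1.27). Among 9 IRF genes Irf1 (1.01) was called higher and Irf8 (-1.03) lower, and each lost its call under at least 1 alternative. The shares over all genes were 6.56% higher and 2.86% lower. Irf4, the partner of BATF, had 3146 and 3224 counts. The Runx genes differed by member, with Runx2 at 809 and 175 counts (2.25), Runx3 at 4732 and 1454 (1.75) and Runx1 at 1171 and 855 (0.51).

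Genes of the interferon response stood slightly higher. Of 34 measured members 33 had a log2 fold above 0, or 32 when scaled by total counts, and 9 were called higher and none lower. The median was 0.55. Ifitm1, an antiviral membrane protein, had 108 counts in Tfh-like (Tox2) and 5 in Th0 (Tox2), a log2 fold of 4.01 (3.22 to 6.14), and the GTPase Gbp2 had 2675 and 856 (1.70). The canonical members Isg15, at 51 and 23 counts, and Ifit1, at 34 and 7, were scarce in both. Irf7 (0.55) was not called. Both media held an antibody to IFN-gamma.

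Genes of antigen presentation were called in both directions. Of 25 measured antigen-presentation genes 6 were called higher and 4 lower, with a median of 0.52. In total, 21 members were above 0, or 19 with the length trend removed. Class I genes ranged from 0.06 for B2m, the class I light chain, to 1.92 for H2-Q7, which had 1615 counts in Tfh-like (Tox2) and 443 in Th0 (Tox2). Of the class II genes, H2-Ab1 was higher at 3750 counts in Tfh-like (Tox2) and 1331 in Th0 (Tox2), a log2 fold of 1.55 (1.46 to 1.64). H2-Ob, at 109 and 47 counts (1.23), and H2-DMb1, at 40 and 18 (1.12), were higher too, and both encode chains of class II-like proteins that regulate peptide loading. H2-Eb2, described above, H2-Eb1, at 21 and 100 counts (-2.10), H2-Oa (-1.48) and the invariant chain gene Cd74, at 250 and 977 (-1.90), were lower. The 4 dendritic-cell markers measured summed to 562 CPM in Tfh-like (Tox2) and 1291 CPM in Th0 (Tox2), of which Ccr7, also a T-cell gene, held 553.5 and 1287 CPM. The other markers in that sum were not lower in Tfh-like (Tox2). Zbtb46 stood at 3.362 CPM in Tfh-like (Tox2) and 3.239 CPM in Th0 (Tox2). Xcr1 stood at 1.569 and 0.216 CPM, and Batf3 at 3.288 and 0.3599 CPM. The lower sum in Tfh-like (Tox2) thus came from Ccr7 alone. The part of the dendritic-cell markers and of Cd79a in the class II values was not tested. Of 6 Ly6 genes 4 were called higher, with a median of 4.54, or 4.37 with Ly6c1 at its bound. Ly6c1 had 106 and 0 counts, at least 36.7-fold higher, Ly6i had 134 and 1, a ratio of 139 (24.5 to 5534), and Ly6c2 had 44 and 2, a ratio of 22.8 (5.96 to 194.5).

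**Figure D3:**
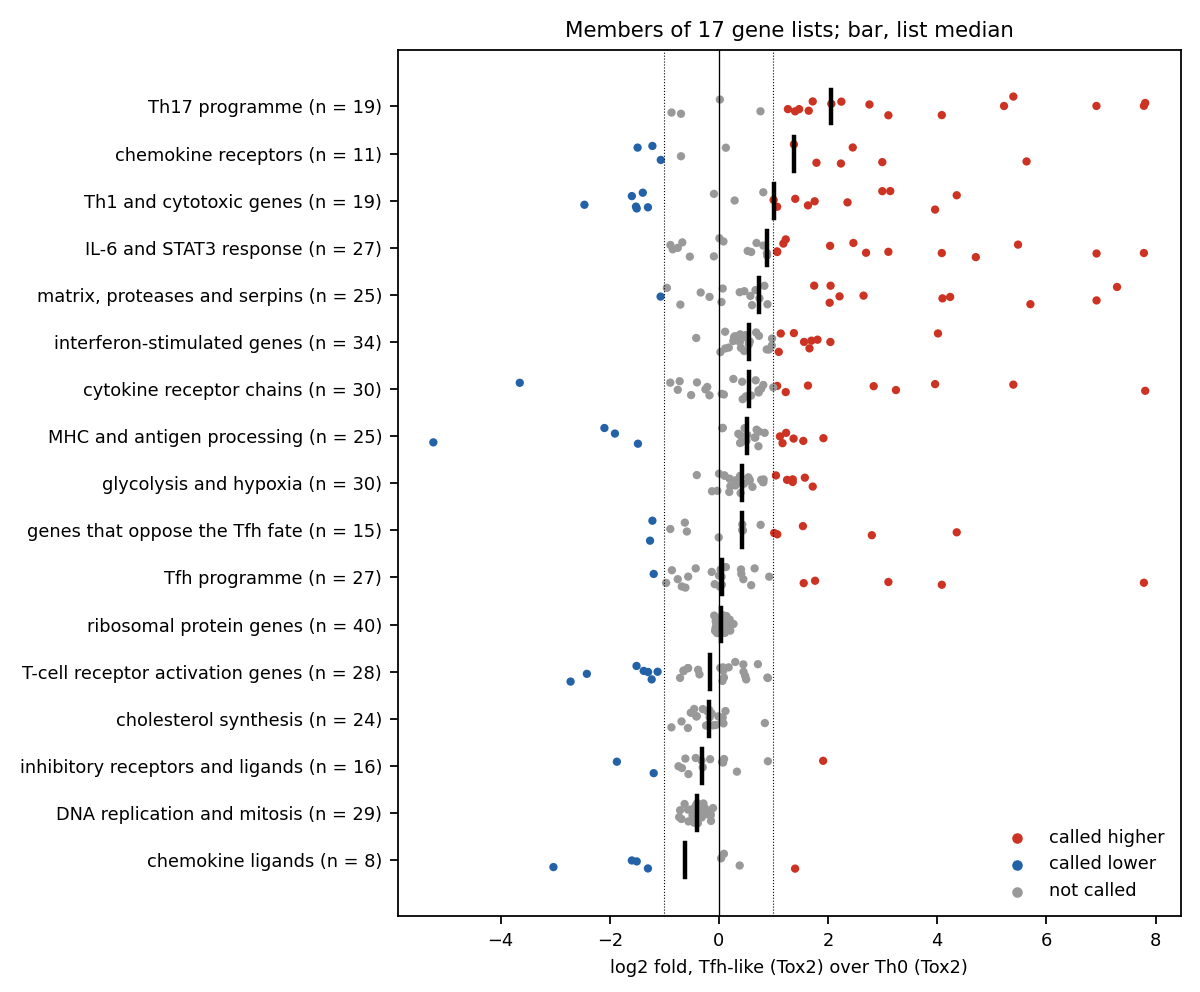
Each point is a gene of 1 of 17 lists, placed by its log2 fold of Tfh-like (Tox2) over Th0 (Tox2), red where called higher, blue where called lower and grey where not called, and black bars are list medians. Among the 17 lists drawn, the Th17 list has the highest median, 2.06, and the ribosomal protein genes lie close around 0.

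Metabolic and proliferation genes differed by less than 2-fold in most cases. Of 30 glycolysis and hypoxia genes 6 were called higher and none lower, with a median of 0.43 and 27 above 0, or 26 under 4 of the alternatives. Slc2a3, encoding the glucose transporter GLUT3, had 21350 counts in Tfh-like (Tox2) and 9323 in Th0 (Tox2), a log2 fold of 1.25 (1.21 to 1.28). The hypoxia targets Egln3 (1.58), Ndrg1 (1.35) and Vegfa (1.35) were higher too, whereas the late glycolytic enzymes Ldha and Eno1 both stood at 0.10. All 29 DNA replication and mitosis genes were below 0 under every scaling tried, with a median of -0.40, and none was called. Mki67, the proliferation marker, had 6976 and 10710 counts (-0.56). Among the D cyclins and CDK inhibitors the inhibitor gene Cdkn1a (1.07) and the kinase gene Cdk6 (1.48) were called higher. Of 24 cholesterol synthesis genes none was called in either direction, with a median of -0.19. Of 28 genes of the ATF4 amino acid response, the serine synthesis enzyme gene Phgdh (-1.23) and the arginine transporter gene Slc7a1 (-1.02) were called lower, and none higher. The call of Slc7a1 was lost with the length trend removed. The 40 ribosomal protein genes had a median of 0.05, from -0.09 to 0.27, and a median of -0.01 with the length trend removed. The 13 mitochondrially encoded genes had a median of -0.30, and 12 of them lay below 0, or all 13 under 3 of the alternatives.

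Per transcript length, on the deposited FPKM scale, the called genes with the highest level in Tfh-like (Tox2) were picked after their values were seen. Lgals1, encoding galectin-1, ranked 18th of the 10960 genes compared in Tfh-like (Tox2), at 1011 FPKM, and 42nd in Th0 (Tox2), at 463 FPKM. Ly6a ranked 64th, at 365 FPKM, against rank 8538 in Th0 (Tox2), at 2.12 FPKM. Vim, encoding the filament protein vimentin, stood at 354 FPKM in Tfh-like (Tox2) and 173 FPKM in Th0 (Tox2). The metal-binding protein gene Mt1 stood at 308 FPKM in Tfh-like (Tox2) and 29.0 FPKM in Th0 (Tox2). The mitochondrial channel gene Vdac1, the adhesion receptor Cd2 and Gimap4 followed, each called higher. Ccr7 was the 1 gene called lower among the first 8, at 225.5 and 524 FPKM, ranks 119 and 36.

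The culture difference was set beside that of the GFP pair, with which it shares no library. There, 853 genes were called higher in Tfh-like (GFP), 7.78% of all, and 341 lower, 3.11% of all. Of the genes called higher with Tox2, 549 were also called higher with GFP, which is 76.4% of the Tox2 list and 64.4% of the GFP list. For the lower genes 170 were shared, 54.1% of the Tox2 list and 49.9% of the GFP list. The log2 fold with Tox2 minus that with GFP was 1 or more, with a counting interval above 0, for 194 genes with the higher fold under Tox2, 1.77% of all. For 215 genes, 1.96% of all, the fold was lower under Tox2 by as much. At a CPM of at least 5 these counts were 118 and 189. With 1 library per group this difference leaves no degree of freedom and was not tested against replicate spread.

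**Figure D4:**
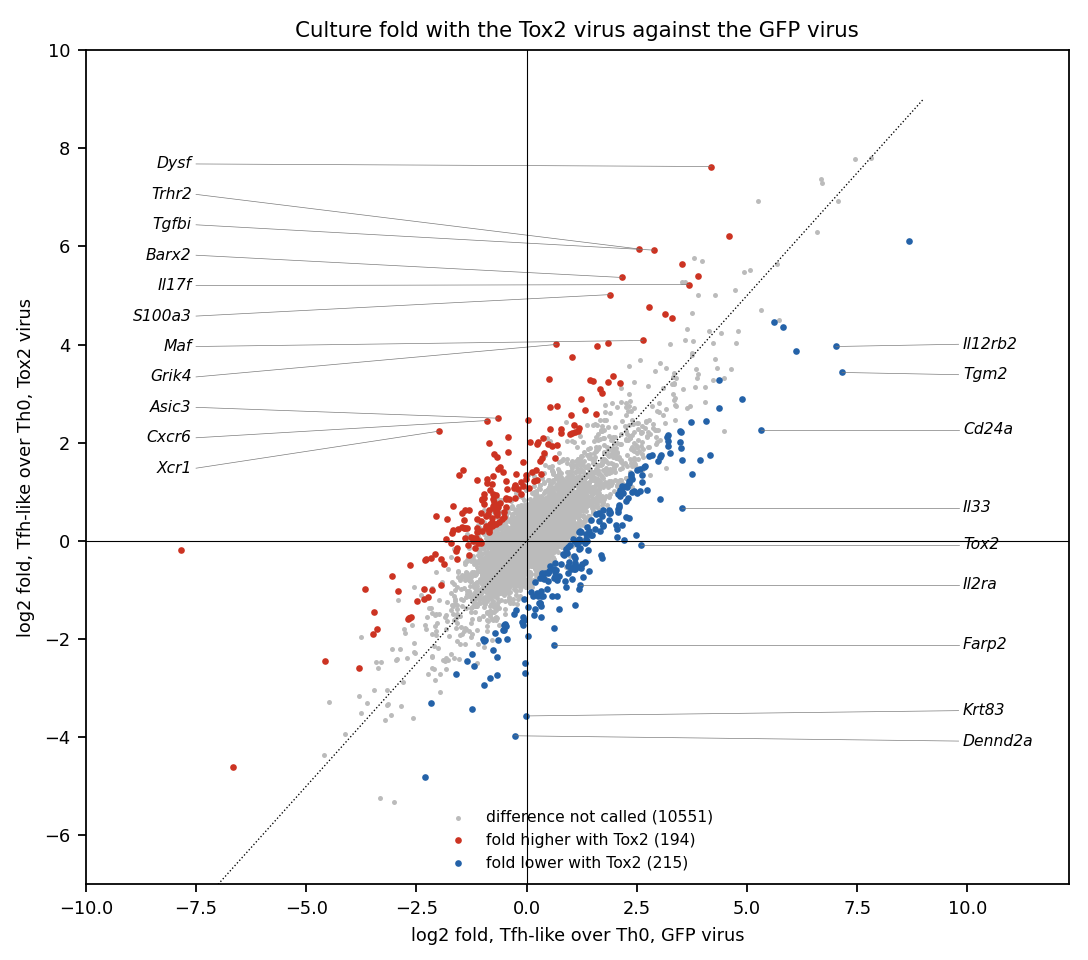
Each point is a gene, with its log2 fold of Tfh-like over Th0 with the Tox2 virus on the y axis and with the GFP virus on the x axis. The 194 genes with a fold at least 2-fold higher with Tox2 are red, the 215 with a lower one are blue, and the dotted line marks equal folds.

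Of the 19 measured genes of the Th17 list, 5 had a culture fold called larger under Tox2 and 1 a smaller one. Maf was at 90.3 and 5.18 CPM with Tox2 and 99.7 and 15.9 CPM with GFP, a difference of 1.45 (1.05 to 1.85), with the Tfh-like levels close to each other. Il17f had 2593 counts in Tfh-like (Tox2) and 70 in Th0 (Tox2), against 12709 in Tfh-like (GFP) and 1018 in Th0 (GFP), so that both levels were lower with Tox2 and the difference of folds was 1.54. Il1r1 (1.50) also had a larger fold, while that of Ahr was smaller (-1.11). The chemokine receptor Cxcr6 was at 23.9 and 4.25 CPM with Tox2 and at 6.36 and 11.9 CPM with GFP, a difference of 3.34 (2.79 to 3.89). Among genes at a CPM of at least 5 in 1 or more of the 4 libraries, predicted genes left out, Dysf, Trhr2, Tgfbi, the glutamate receptor gene Grik4, the homeobox gene Barx2, the acid-sensing channel gene Asic3 and S100a3 complete the 8 highest differences. Several rest on few Th0 counts, which with Tox2 and GFP were 0 and 1 for Trhr2, 1 and 4 for Barx2 and 2 and 4 for Tgfbi. The interval of the difference was 0.73 to 6.09 for Trhr2 and 1.12 to 5.30 for Barx2. Grik4 had 138 and 7 counts with Tox2 and 12 and 7 with GFP, and Asic3 had 91 and 15 with Tox2 and 3 and 6 with GFP.

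Other genes had a smaller or an opposite culture fold under Tox2. Tgm2, encoding transglutaminase 2, had 2036 counts in Tfh-like (Tox2) and 194 in Th0 (Tox2), against 4434 in Tfh-like (GFP) and 30 in Th0 (GFP). Its difference was -3.73 (-4.27 to -3.18). Il12rb2 stood at 26.8 and 1.58 CPM with Tox2 and at 125 and 0.818 CPM with GFP, a difference of -3.06 (-4.05 to -2.07). Tbx21 had a difference of -1.46 (-2.61 to -0.31). The surface protein gene Cd24a, at 107 and 22.1 CPM with Tox2 and 166 and 4.02 CPM with GFP, had one of -3.05. Dennd2a was at 2.47 and 40.9 CPM with Tox2 and 1.46 and 1.79 CPM with GFP, so its low fold came with a high level in Th0 (Tox2) alone. Krt83 (-3.56), the alarmin gene Il33 (-2.84), Farp2 (-2.74) and Tox2 itself (-2.67) are the others among the 8 lowest differences under the same CPM limit. Tox2 was higher in Tfh-like (GFP) than in Th0 (GFP) by 2.59 on the log2 scale, whereas endogenous Tox2 cannot be read in the Tox2 pair.

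The signalling factor Smad3, which transmits TGF-beta signals, had nearly equal levels in the Tox2 libraries, at 82.6 and 81.7 CPM. With GFP it stood at 100.4 CPM in Tfh-like and 21.7 CPM in Th0, so its difference of folds was -2.19 (-2.40 to -1.97). For Il2ra the levels were 217 and 402 CPM with Tox2 and 935 and 402 CPM with GFP, a difference of -2.11 (-2.19 to -2.03). Here the Th0 levels were alike and the Tfh-like level differed. Genes of cholesterol synthesis had a median fold of -0.19 with Tox2 and 0.42 with GFP, with a median difference of -0.65, and 2 of 24, Mvd and Lss, were called for the difference. For STAT factors the medians were 0.43 with Tox2 and 1.06 with GFP, where 5 of 7 were called higher. The Th17 and the IL-6 and STAT3 medians were close to those of the GFP pair, at 1.94 and 0.92 there.

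**Figure D5:**
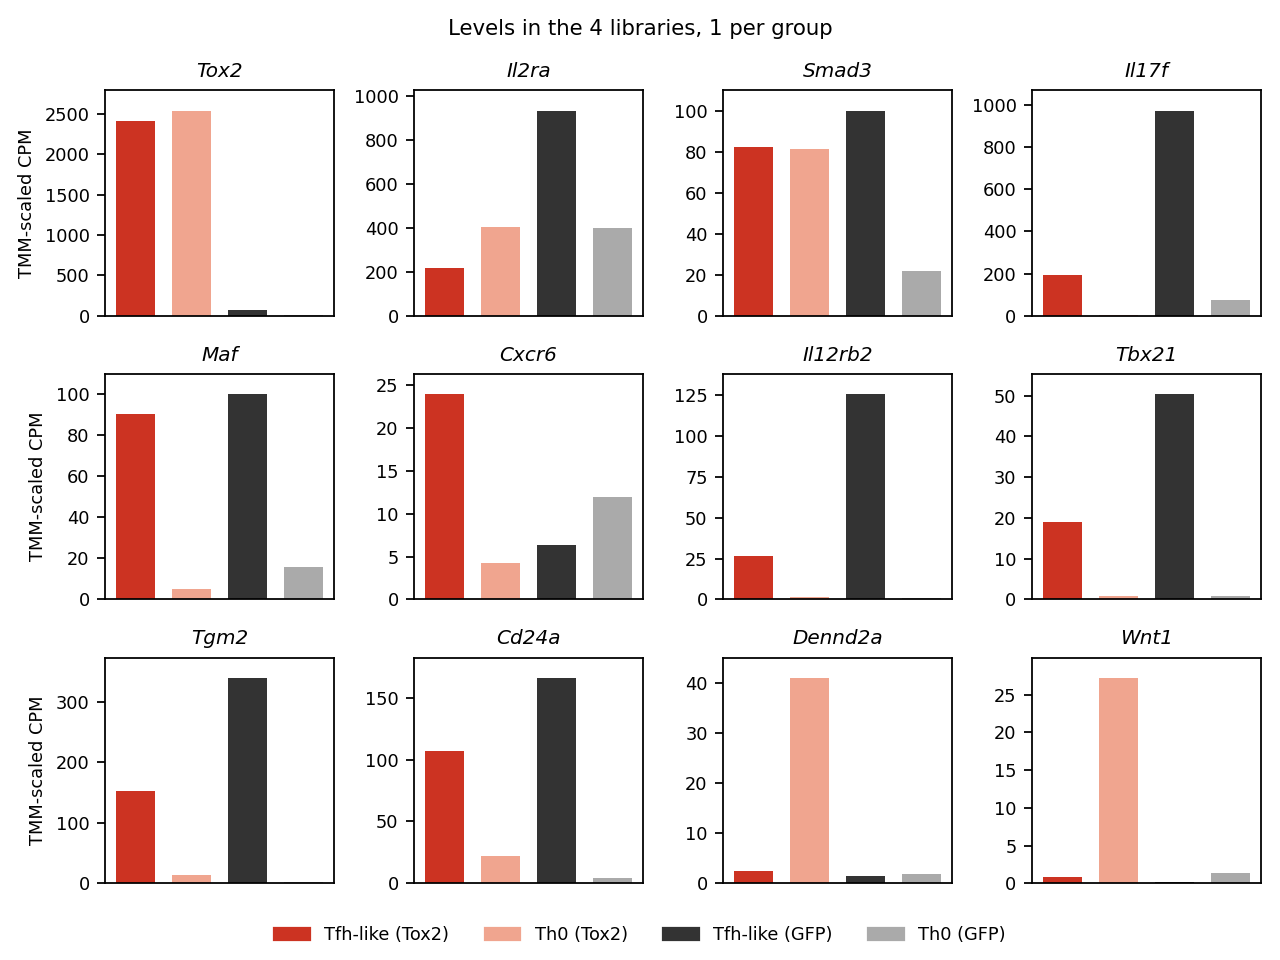
Bars give the TMM-scaled CPM of 12 genes in the 4 libraries, 1 per group, on a linear axis from 0 that differs between genes. Maf differs between the viruses mainly in Th0, Il2ra and Il12rb2 in Tfh-like, and Dennd2a and Wnt1 are high in Th0 (Tox2) alone.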

How the data were processed

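Mouse CD4+ T cells were profiled by RNA-seq, 1 library per group; the Tox2 pair was compared and the GFP pair set beside it. The authors deposited, per the file headers, whole-number counts per gene that were not normalized and FPKM. Per the submitters' processing notes, MACS2, edgeR, featureCounts, Subread, Bowtie2 and Trim Galore 0.4.4 were used with build mm10, in no stated role or order. The annotation and the use of strand in counting were not given in the sources used here, so overlapping and antisense genes cannot be separated. The 11027 genes listed had been reduced by level: the lowest sum over the 4 libraries was 24 counts. In every listed gene the second-highest library reached at least 0.658 CPM, scaled by total counts. Genes present in 1 library alone may therefore be missing from the list. From the counts, TMM factors (edgeR 4.0.16, R 4.3.3), CPM and log2 folds with a prior count of 2 were computed for the 10960 genes that reached a CPM of 1 in any library. Exact 95% conditional binomial (Clopper-Pearson) intervals cover counting error only, as do delta-method intervals for differences of folds. No test across replicates exists. FPKM was used per length only. Locations are from GENCODE M21 (10955 genes matched by symbol).

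Gene names follow a rule: Tox2 and 12 T-cell genes, the 12 highest and 12 lowest called genes at a CPM of 5 or more, the 8 highest and 8 lowest differences under the same limit in any library (predicted genes left out), and up to 5 called members of each of 36 lists, with members named as not called. The libraries, lists and rule were chosen with earlier results of these data known. Other genes, and those named only for the count they complete, were chosen after their values were seen. Total counts per Tox2 library were 13562334 and 13673774. The procedure was tested on simulated data that held counting error alone, so that test does not cover replicate spread or duplicate reads. Some named genes are not reported here.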

Additional observations from a re-analysis of the deposited data

Results flagged for a closer look

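In 5 genes the culture fold was called in opposite directions with the Tox2 and the GFP virus. The difference was not tested against replicate spread, since each group has 1 library. Xcr1, a chemokine receptor, had 21 counts in Tfh-like (Tox2) and 3 in Th0 (Tox2), a log2 fold of 2.24 (ratio 7.27, counting interval 2.17 to 38.0), against 1 in Tfh-like (GFP) and 10 in Th0 (GFP). Cnksr3 had 106 and 42 counts with Tox2, a log2 fold of 1.35, and 34 and 106 with GFP (-1.55). Mab21l3 had 40 and 14 counts with Tox2 (1.44) and 19 and 57 with GFP (-1.45). The serine protease gene Prss12 had 182 and 79 counts with Tox2 (1.24) and 44 and 101 with GFP (-1.12). Enthd1 went the other way, with 9 and 26 counts with Tox2 (-1.30) and 23 and 10 with GFP (1.10). All of these counts are low beside the median of 242 counts that genes called higher had in Tfh-like (Tox2).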

How the results depend on the processing

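No paired analysis was possible because each group has 1 library, and for the same reason no replicate could be left out. Over 8 alternatives (median-of-ratios size factors, total counts, TMM within each pair, prior counts of 0.5 and 10, no filter, a CPM of at least 5, and removal of the trend with gene length) the calls ranged over 621 to 730 higher and 263 to 342 lower genes. With the interval's near bound required to pass 2-fold, 452 genes were higher and 192 lower; with a 4-fold rule, 231 and 78. At a CPM of at least 5, 118 genes had a higher culture fold under Tox2, and the median was -0.12 for regulatory T-cell genes, 0.75 for chemokine receptors, -1.30 for chemokine ligands and 0.80 for cytokine genes; fewer genes were compared there. With the length trend removed, the medians of ribosomal protein and mitochondrially encoded genes were -0.0117 and -0.35, and with total counts the mitochondrial one was -0.34. Of 834 recomputed folds of 139 named genes, 798 stayed within their counting interval, 36 moved and 0 reversed. Irf1 lost its call with median-of-ratios factors, total counts and a prior count of 10, Itgae and Ccl20 with that prior, and Irf8 and Slc7a1 with the length trend removed. Across genes, Spearman's rho of fold with length was -0.12 with Tox2. Depth limits genes of few counts in both libraries: Prdm1, Ccl20, Ltb4r1 and Xcr1 have wide intervals.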

Other observations

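Genes of the Wnt pathway were called in both directions. Of 21 measured Wnt genes 3 were called higher and 2 lower, with a median of -0.16. Beside Wnt1, the ligand gene Wnt10b had 150 counts in Tfh-like (Tox2) and 1596 in Th0 (Tox2), a log2 fold of -3.34 (-3.61 to -3.12). Dkk3, of a family of secreted Wnt antagonists, had 391 and 82 counts (2.28), the receptor Fzd7 592 and 211 (1.53) and the factor Tcf7l1 76 and 31 (1.29). Ctnnb1, encoding beta-catenin, had 5602 and 6098 counts (-0.07). Of 24 TGF-beta pathway genes Tgfb3, Ltbp3 (2.26) and Lrrc32 were called higher and Ltbp4 lower, at 18 and 78 counts (-1.95). Beside these counts, 6.56% of all genes compared were called higher and 2.86% lower. Ltbp3 and Ltbp4 encode proteins that hold latent TGF-beta in the matrix.

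In the BCL2 family the called members are all of the BH3-only class, which promotes cell death. Bcl2l11, encoding BIM, had 1375 counts in Tfh-like (Tox2) and 4947 in Th0 (Tox2), a log2 fold of -1.79 (-1.88 to -1.71), and Bmf (-1.62) and Bid (-1.26) were lower too. Bik was higher, at 112 and 24 counts (2.18). Mcl1 (0.08), Bax (0.02) and Bcl2 (-0.20) were not called, and the median of 17 members was 0.12. Of 28 adhesion genes 6 were called higher and 2 lower. The integrin gene Itga3 had 4174 and 793 counts (2.45) and Itga2 95 and 27 (1.79). Of 25 matrix, protease and serpin genes 10 were called higher and 1 lower. Serpinf1 had 1976 and 118 counts (4.10) and the fibronectin gene Fn1 199 and 9 (4.24), and Serpinb1a had 102 and 0, at least 35.3-fold higher. Of 10 stromal markers 3 were measured, at a summed 144 CPM in Tfh-like (Tox2) and 192.5 CPM in Th0 (Tox2). Pecam1 held most of both sums, at 125 CPM in Tfh-like (Tox2) and 182 CPM in Th0 (Tox2). Pdgfrb stood at 6.5 and 5.11 CPM and Col1a1 at 12.4 and 5.04 CPM. The part of these stromal markers in the matrix genes was not tested. Of 28 TNF and TNF receptor genes 3 were called higher, Tnfrsf8, the B-cell factor gene Tnfsf13b (1.68) and Fas (1.59). The shares over all genes compared were 6.56% higher and 2.86% lower. Among the 6 called lower were Tnfrsf13c, at 213 and 1089 counts (-2.29), and Cd70, at 3 and 26, a ratio of 0.120 (0.0232 to 0.391).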
